A study of Caenorhabditis elegans with 2 samples.

Results

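The 6 vitellogenin genes of Caenorhabditis elegans, vit-1, vit-2, vit-3, vit-4, vit-5 and vit-6, were taken by name from the annotation and are 6 of 19973 nuclear protein-coding genes. Binding of the homeodomain factor UNC-62 around them was read from peak lists of chromatin immunoprecipitation followed by sequencing (ChIP-seq), over the stretch from 10 kb upstream of each gene to 2 kb downstream of it. There was 1 group with 2 biological replicates, whole young adult worms aged 4 days of strain OP600 with the sexes pooled. All worms carried the unc119 allele ed3 and the insertion wgIs600, in which unc-62 is joined to TY1, EGFP and FLAG tags and unc119 is supplied. No second condition, untagged strain or other age was among the samples used here. The labels give unc-62 as the antibody, while the description speaks of the eGFP fusion, so whether native UNC-62 was also captured is not known. Whole animals were used, so the tissue in which a site was bound is not resolved, and a strong peak in few cells and a weaker one in many cannot be told apart.

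Vitellogenins are large lipid-carrying yolk proteins. The adult hermaphrodite intestine makes them in great quantity and secretes them into the body cavity, from which oocytes take them up through the receptor RME-2. The genes vit-1 to vit-5 encode the larger yolk polypeptides, and vit-6 encodes a precursor that is cut into smaller ones. UNC-62, a protein of the Meis and Homothorax class, and its Pbx-type partner CEH-60 are known regulators of yolk genes, and GATA factors such as ELT-2 drive intestinal genes more widely.

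Of the 6 genes, 5 lie on chromosome X and vit-6 lies on chromosome IV. In ce11 coordinates vit-5 spans X 3403471 to 3408603 (plus strand), vit-4 X 3558769 to 3563965 (minus), vit-3 X 3567355 to 3572549 (minus), vit-2 X 5101042 to 5106169 (plus), vit-1 X 7727889 to 7733168 (plus) and vit-6 IV 8261157 to 8266459 (plus). The genes vit-3 and vit-4 are tandem neighbours with 3389 bp between them, so a peak in front of vit-3 also falls in the window of vit-4. The other 4 genes stand among unrelated neighbours, and their gene lengths of 5128 to 5303 bp are much alike.

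The sequence in front of the genes is shown because it carries the peaks described next. Each line gives 300 bases of the RefSeq WBcel235 assembly, which is ce11, from 250 bases before the annotated start to 50 after it, 5′ to 3′ on the strand of the gene. The stretches are chrX:7727639-7727938 (plus strand), chrX:5100792-5101091 (plus), chrX:3572500-3572799 (minus), chrX:3563916-3564215 (minus), chrX:3403221-3403520 (plus) and chrIV:8260907-8261206 (plus). Capitals mark the motif words searched on both strands: vitellogenin promoter element 1 (VPE1, TGTCAAT), vitellogenin promoter element 2 (VPE2, CTGATAA), the GATA core TGATAA that lies within VPE2, the Meis-class core TGACAG and the Pbx-Meis composite TGATTGAC. On the reverse strand VPE1 reads ATTGACA and so shares ATTGAC with the composite and TGACA with the Meis core.
vit-1: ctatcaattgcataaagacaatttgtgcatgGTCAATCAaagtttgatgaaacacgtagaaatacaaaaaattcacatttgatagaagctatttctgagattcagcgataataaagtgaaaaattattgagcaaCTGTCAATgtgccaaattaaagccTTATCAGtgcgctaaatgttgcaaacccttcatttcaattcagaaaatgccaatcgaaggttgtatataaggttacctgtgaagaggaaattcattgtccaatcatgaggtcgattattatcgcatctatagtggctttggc
vit-2: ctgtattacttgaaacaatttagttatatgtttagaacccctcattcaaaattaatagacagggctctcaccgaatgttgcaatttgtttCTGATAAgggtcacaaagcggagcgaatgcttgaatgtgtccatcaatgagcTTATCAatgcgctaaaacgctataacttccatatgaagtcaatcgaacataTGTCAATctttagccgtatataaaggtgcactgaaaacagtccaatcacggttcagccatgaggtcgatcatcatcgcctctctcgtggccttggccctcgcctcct
vit-3: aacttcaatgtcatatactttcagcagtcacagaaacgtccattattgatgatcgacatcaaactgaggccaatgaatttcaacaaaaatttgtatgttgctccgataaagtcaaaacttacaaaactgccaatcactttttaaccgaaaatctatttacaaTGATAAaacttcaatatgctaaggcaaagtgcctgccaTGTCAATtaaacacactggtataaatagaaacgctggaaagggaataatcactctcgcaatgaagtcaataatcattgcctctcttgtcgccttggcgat
vit-4: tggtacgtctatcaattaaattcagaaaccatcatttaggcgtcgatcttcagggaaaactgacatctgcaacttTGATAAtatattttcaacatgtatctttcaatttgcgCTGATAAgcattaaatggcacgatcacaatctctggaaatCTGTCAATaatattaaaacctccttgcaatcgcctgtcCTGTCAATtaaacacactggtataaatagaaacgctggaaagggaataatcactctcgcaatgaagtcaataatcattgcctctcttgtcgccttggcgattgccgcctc
vit-5: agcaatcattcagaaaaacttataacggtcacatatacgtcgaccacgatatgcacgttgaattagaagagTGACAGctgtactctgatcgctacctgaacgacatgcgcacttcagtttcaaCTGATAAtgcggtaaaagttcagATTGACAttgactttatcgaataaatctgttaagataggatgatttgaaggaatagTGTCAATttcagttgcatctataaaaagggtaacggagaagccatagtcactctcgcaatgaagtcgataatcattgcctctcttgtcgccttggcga
vit-6: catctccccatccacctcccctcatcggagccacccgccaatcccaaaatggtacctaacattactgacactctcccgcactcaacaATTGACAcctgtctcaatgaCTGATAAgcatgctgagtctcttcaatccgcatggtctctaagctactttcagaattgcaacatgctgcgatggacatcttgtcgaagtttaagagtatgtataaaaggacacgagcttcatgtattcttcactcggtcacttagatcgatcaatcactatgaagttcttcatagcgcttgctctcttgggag

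Every vitellogenin gene had a peak just upstream of its start in the relaxed list called on both replicates together, here the pooled list. The relaxed lists hold peaks and background by design, with 19023 entries in the pooled list, 30000 in that of replicate 1 and 28092 in that of replicate 2. The promoter window covered the 1000 bp before a transcript start and the 200 bp after it, and all 6 genes had a summit there, against 33.2% of all nuclear protein-coding genes and 37.6% of those on chromosome X. The 6 summits lay between 88 and 207 bp upstream, with a median of -134 bp. A summit 1 to 250 bp upstream, a limit set after these distances were seen, was found at 6 of 6 vitellogenin genes and at 12.7% of all genes. Over the 6640 genes with a pooled promoter summit the median distance was -238 bp, with quartiles of -537 and -29.0 bp. No second summit of the pooled list fell in any of the 6 promoter windows.

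The strength of these peaks differed, and 2 genes stood above the others in the pooled list. Signal is the strength that the authors' peak caller gave each peak, on a scale of its own in each list. At vit-6 the pooled signal was 73.0, with 26.8 in the list of replicate 1 and 45.1 in that of replicate 2. At vit-2 it was 63.1, with 16.6 and 49.4. In replicate 1 vit-2 was close to vit-4 (16.1) and vit-1 (15.9), and in replicate 2 it was above vit-6. Those of vit-6 and vit-2 ranked 53rd and 94th of 18993 nuclear pooled peaks, and the median nuclear pooled peak had 11.3. By gene, 28 of the 6640 genes with a pooled promoter summit had a signal at or above that of vit-6, and 54 at or above that of vit-2.

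The remaining 4 genes had weaker pooled peaks that lay close together in strength. The pooled signal at vit-3 was 27.6, with 10.1 in replicate 1 and 20.1 in replicate 2. That of vit-5 was 23.3, with 10.7 and 13.9. That of vit-4 was 22.1, with 16.1 and 5.68, and that of vit-1 was 21.9, with 15.9 in replicate 1 and no promoter peak in replicate 2. They ranked 1082nd (vit-3), 1580th (vit-5), 1754th (vit-4) and 1805th (vit-1) among the nuclear pooled peaks, all within the strongest 9.50%. Each was 1.94 to 2.45 times the median nuclear pooled peak, against 5.59 times for vit-2 and 6.47 times for vit-6. With 1 pooled value a gene, the order among vit-1, vit-4 and vit-5 has no measured error. The replicates differed in the place of vit-5: it was below vit-4 and vit-1 in replicate 1, and it led these 3 genes in replicate 2.

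**Figure D1:**
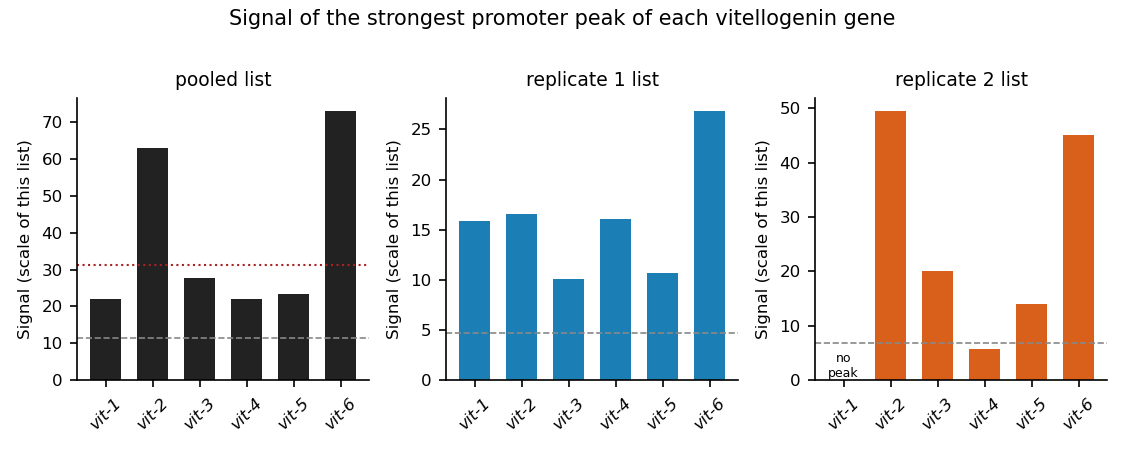
Signal of the strongest promoter peak of each vitellogenin gene in the pooled list and in the list of each replicate, as bars from 0 on the separate scale of each list; the grey dashed line is the median nuclear peak of that list and the red dotted line the lowest signal of a nuclear peak in the thresholded list (31.2). In the pooled panel vit-2 and vit-6 stand above the dotted line and the other 4 genes between both lines, and vit-1 has no bar in replicate 2.

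The authors' list at a threshold on the irreproducible discovery rate (IDR), which measures how well ranks match between replicates, held 2 of the 6 genes, vit-2 and vit-6, by a promoter summit. Of all nuclear protein-coding genes 2.43% had a promoter summit in this list, and of those on chromosome X 3.81%. The genes vit-2 and vit-6 were also among as many of the strongest peaks of either replicate alone, a cut by strength and not by IDR. With replicate 2 alone the count was 2 of 6. With replicate 1 alone it was 4 of 6, with vit-1 and vit-4 added. The peak of vit-2 spanned X 5100755 to 5101074 with its summit 127 bp upstream, in intergenic sequence. That of vit-6 spanned IV 8260857 to 8261176 with its summit 140 bp upstream, within K07H8.16, an annotated noncoding RNA gene. The list ended at a nuclear signal of 31.2, and all 815 nuclear pooled peaks at or above that value were in it, so membership followed the pooled signal. The pooled peak of vit-3 was the nearest below, at 27.6. Its q-value was at the lowest value that the pooled list holds, which 1221 nuclear pooled peaks shared, so the q-value did not separate it from vit-2 and vit-6.

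The thresholded promoter peaks with the most similar signal in both replicates were found among 419 such peaks of other genes, by distance on the log2 scale over the 2 replicate values. Nearest to vit-2 were the peaks of sma-9 (15.8 and 46.7 in replicates 1 and 2), lron-7 (14.8 and 50.1) and srlf-7 (16.2 and 43.9). Nearest to vit-6 were lap-2 (26.5 and 47.0), ceh-38 (25.7 and 42.8) and C53D5.5 (28.9 and 44.7). The likeness rests on 2 values a peak.

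By rank within each list, the replicates differed most at vit-1 and vit-4. In the list of replicate 1 all 6 genes had a promoter peak, against 42.9% of all genes, and vit-4 and vit-1 ranked 388th and 399th of 29970 nuclear peaks, close behind vit-2 at rank 352. In the list of replicate 2, 5 of 6 genes had a promoter peak, against 41.8% of all genes. There vit-4 ranked 20671st of 28060, with a signal below the median nuclear peak of that list (6.82), and vit-1 was missing, while vit-2 ranked 59th and vit-6 77th. The summits of vit-4 in both replicates lay close together, 111 and 78 bp upstream.

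Set against other peaks, these differences were uncommon, by a margin that depended on the peaks compared. The ratio of replicate 1 to replicate 2 signal was 2.83 at vit-4. Of the 8415 nuclear pooled peaks found in both lists, 6 had a ratio at least as high, vit-4 included. The list of replicate 2 ends at a nuclear signal of 4.75, and the median nuclear replicate 1 peak had 4.70. Only peaks strong in replicate 1 could therefore reach that ratio, so 6 of 8415 overstates its rarity. The peaks able to reach it were not counted. The median ratio of the 8415 peaks was 0.658, with 5th and 95th percentiles of 0.288 and 1.46, and the lists may differ in scale. Of all 18993 nuclear pooled peaks, 12124 overlapped a replicate 1 peak and 14287 a replicate 2 peak. The 3709 found in replicate 1 but not in replicate 2 have no ratio and are not in this comparison. Of the 1805 nuclear pooled peaks at least as strong as that of vit-1, 7 had no overlapping peak in the list of replicate 2, and vit-1 was among them. In the list of replicate 1, 70 of the 1805 (3.88%) had none. The pooled signal draws on both replicates, so neither count is independent of the replicate lists, and the effect of that was not tested. Of the 399 nuclear replicate 1 peaks at least as strong as that of vit-1, 11 (2.76%) had no overlapping replicate 2 peak. The ratios at the other genes lay within those percentiles: 0.336 at vit-2, which was near the lower of them, 0.501 at vit-3, 0.595 at vit-6 and 0.773 at vit-5. The lists give no read depth, and its part in the difference between the replicates was not tested.

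**Figure D2:**
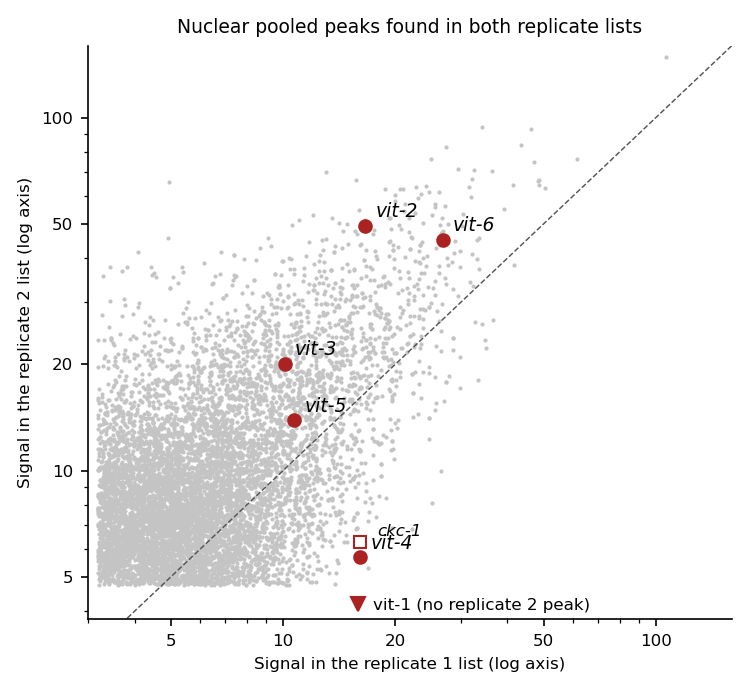
Signal in the list of replicate 1 against that of replicate 2, both on log axes, for the 8415 nuclear pooled peaks found in both (grey points), with the vitellogenin promoter peaks as red points, the peak in front of ckc-1 as an open square and the line of equal values dashed. The points of vit-2, vit-3, vit-5 and vit-6 lie above the line, vit-4 and ckc-1 lie far below it, and vit-1 (triangle, placed under the lowest values) had no replicate 2 peak.

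Each of the 6 promoters held VPE1 in the 300 bases printed above, against 5.77% of all nuclear protein-coding promoters of that length. VPE2 was present in 5 of 6, all but vit-3, against 8.15%. VPE1 and VPE2 occurred together in 5 of 6, against 0.506%, and vit-4 and vit-5 held 2 copies of VPE1, against 0.215% of promoters with 2 or more. The GATA core TGATAA was in 6 of 6, against 30.2%. These elements were named from vitellogenin promoters in the first place, so their presence is no result of the ChIP-seq data.

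The Meis-class core TGACAG, which proteins of the UNC-62 class bind, was found in 3 of 6 promoters, vit-1, vit-4 and vit-5, against 9.68% of all promoters. The genes with the strongest pooled peaks, vit-2 and vit-6, had no TGACAG in these 300 bases. In the longer stretch from 500 bases before the start to 100 after it, vit-6 did hold a copy, and vit-2 and vit-3 held 0. The share of all promoters with the word in that longer stretch was not counted. Within 50 bp of the pooled summit the word was at 2 of 6 genes, vit-1 and vit-4. Of the 815 nuclear thresholded summits 22.0% had it at that distance. That is another set of peaks: it lacks vit-1 and vit-4, and neither vit-2 nor vit-6, which it holds, had the word there. The share over all pooled summits was not counted. The Pbx-Meis composite TGATTGAC was in the vit-1 promoter alone, against 0.946% of promoters. Within 50 bp of the pooled summit it was at 0 of the 6 genes. Of the nuclear thresholded summits, again another set of peaks, 5.03% had it. A missing word says only that these letters are not in this window.

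The pooled summits lay among these words in 5 of the 6 genes. At vit-6 the pooled summit fell within the VPE2 copy at 143 to 137 bp upstream, and VPE1 was centred 20 bp away, but the summits of both replicates lay 173 bp upstream, outside every word. At vit-4 the nearer VPE1 copy, which overlaps a Meis core, was centred 14 bp from the pooled summit. At vit-5 a VPE1 copy was centred 13 bp away, and at vit-1 the overlapping VPE1 and Meis core were 28 and 26 bp away. At vit-2 the nearest word was a GATA core, 21 bp away, and VPE1 was 73 bp away. At vit-3 the summit lay farther upstream, 121 bp from the nearest word, a GATA core, and 160 bp from VPE1. The pooled promoter peaks were all 320 bp wide, and the summits of the 2 replicates lay at -168 and -88 bp at vit-5, so such distances are coarse.

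**Figure D3:**
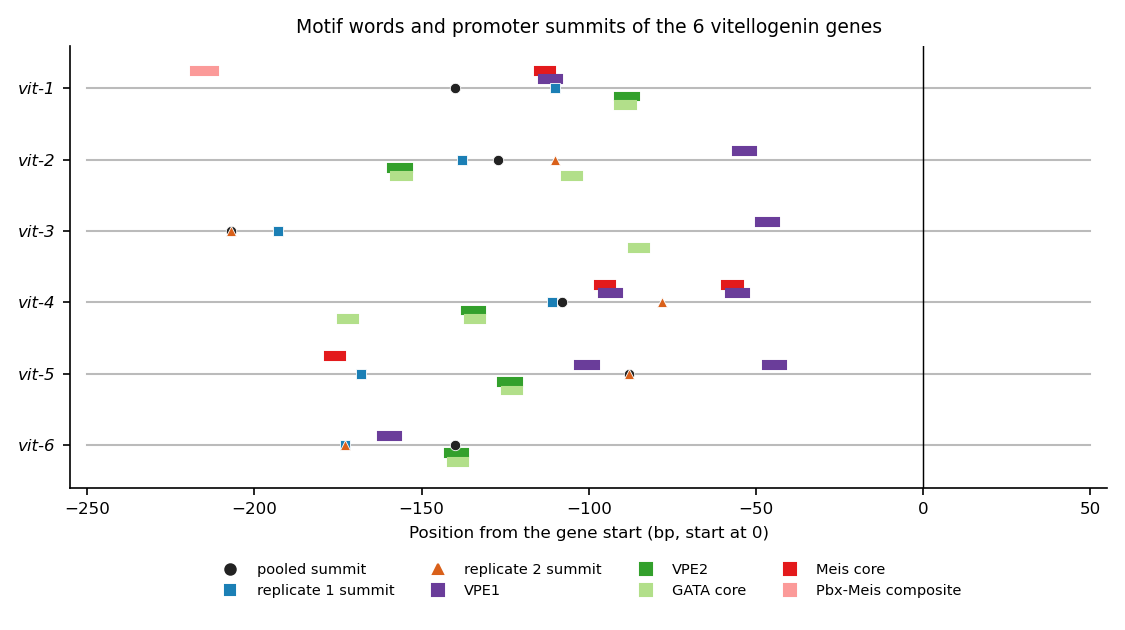
Motif words (coloured boxes) and promoter summits of the pooled, replicate 1 and replicate 2 lists (symbols on each line) from 250 bp before to 50 bp after the start of each vitellogenin gene, with the start at 0. Pooled summits lie among the boxes in 5 genes; at vit-3 all summits lie upstream of the boxes, 193 and 207 bp from the start, and at vit-6 both replicate summits do, 173 bp from the start.

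Vitellogenin genes are close paralogs, which can blur the mapping of short reads, and the likeness was in the genes rather than in their promoters. Coding sequences were 99.0% identical between vit-3 and vit-4, 97.7% between vit-3 and vit-5, 97.8% between vit-4 and vit-5 and 94.0% between vit-1 and vit-2. Between these groups identity was 69.4 to 70.2%, and vit-6 was 62.1 to 63.2% identical to the others. The 250 bases upstream were 56.2 to 70.7% identical between any 2 of the 6 genes. The longest exact run that any pair shared there was 50 bp, between vit-3 and vit-4, and for the other pairs it was at most 11 bp.

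Words of 50 bases were counted over the whole genome on both strands, as a measure of where a read of that length has a single place. Within the pooled promoter peaks of vit-1, vit-2, vit-3, vit-5 and vit-6 100% of such words occurred at a single place, and at vit-4 77.1% did. Of the words in the gene bodies 12.8% were repeated in vit-1, 13.1% in vit-2, 74.1% in vit-3, 78.6% in vit-4, 49.1% in vit-5 and 0% in vit-6. Every repeated word of a gene body was shared with another vitellogenin gene: vit-1 with vit-2, and vit-3, vit-4 and vit-5 with each other. The promoter peaks thus lie in sequence that such reads can tell apart, with vit-4 as the exception for the part nearest to its start. No source used here gives the read length or the handling of reads with several places.

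**Figure D4:**
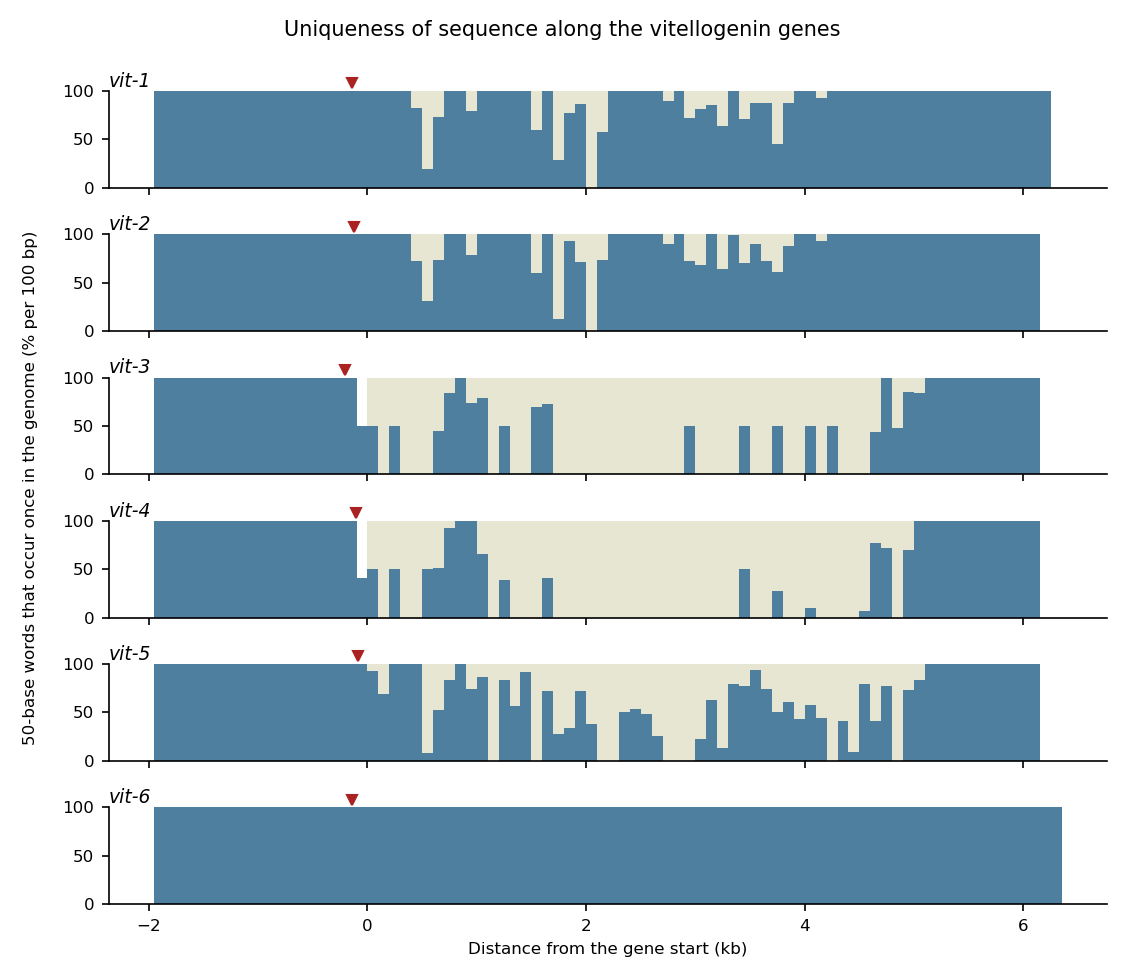
Share of 50-base words that occur at a single place in the genome, per 100 bp, from 2 kb upstream of each vitellogenin gene to 1 kb downstream of it, with the gene body shaded and the pooled promoter summit as a red triangle. Sequence under the triangles is at or near 100% in each gene, while most of the bodies of vit-3 and vit-4 and much of that of vit-5 are repeated.

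The gene bodies held fewer summits per kb than genes of similar length, by a margin that depended on the list. In the pooled list 1 summit lay within the 31.2 kb of the 6 bodies, at 563 bp into vit-6 with signal 11.1, or 0.0320 per kb. Nuclear protein-coding genes of 4500 to 6000 bp held 0.154 per kb, and 53.1% of them had a summit. In replicate 1 the 6 bodies held 4 summits, 2 each in vit-2 and vit-6, and in replicate 2 they held 5, of which 4 were in vit-6 and 1 in vit-5. That is 0.128 per kb in replicate 1 and 0.160 per kb in replicate 2, against 0.284 and 0.247 per kb in genes of 4500 to 6000 bp. The body of vit-6, where no word was repeated, held most of them, and vit-3 and vit-4, where most words were repeated, held none in any list. The bodies of vit-1 and vit-2 had no pooled summit, although 87.2% and 86.9% of their words occurred at a single place. The part of repeated sequence in these counts was not tested.

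Counted over all zones, the windows held 3 distinct peaks of the thresholded list, 21 of the pooled list, 33 of replicate 1 and 29 of replicate 2. The third thresholded peak lay downstream of vit-4, 6366 bp from its start and within an exon of the convergent neighbour rgs-7, which encodes a regulator of G protein signalling (X 3557439 to 3557758). Its signal was 48.7, with 16.4 and 29.2 in the replicates. It was stronger in the pooled list than the promoter peaks of vit-3 and vit-4 next to it.

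Several upstream peaks lay nearer to the start of a neighbour. The peak 3973 bp upstream of vit-3 (pooled 19.5) was 84 bp upstream of ckc-1, which encodes a choline kinase, and like vit-4 it was strong in replicate 1 (16.1) and weak in replicate 2 (6.28), a ratio of 2.56. The peak 1962 bp upstream of vit-1 (14.7) was 52 bp upstream of spp-14, a saposin-like protein gene, and gave 8.75 and 7.81 in the replicates. At vit-5 the peak 2969 bp upstream (16.2) was nearer to cht-1, a chitinase gene, and had an overlapping peak in replicate 2 (13.9) and none in replicate 1.

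The stretch between vit-2 and its upstream neighbour acn-1 held a series of weaker pooled peaks. They lay 1700, 2485 and 3475 bp upstream of vit-2, with pooled signals of 20.1, 15.9 and 20.4. The first was nearest to the start of vit-2 itself, with 5.41 in replicate 1 and 15.2 in replicate 2. The other two lay nearer to the start of acn-1, which encodes a protein like angiotensin-converting enzyme, and the farther gave 9.01 and 10.6 in the replicates. At vit-6 a peak lay just past the end of the gene, 5482 bp from its start (18.0), with 9.13 and 8.25 in the replicates, and it was not in the thresholded list. The same promoter peak of vit-6 lay at the edge of the promoter window of the divergent neighbour K07H8.7, with its summit inside that window in both replicates (26.8 and 45.1) and outside it in the pooled and thresholded lists. No gene next to a vitellogenin gene had a thresholded summit in its promoter window, and unc-78, downstream of vit-5, had no promoter summit in any list.

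**Figure D5:**
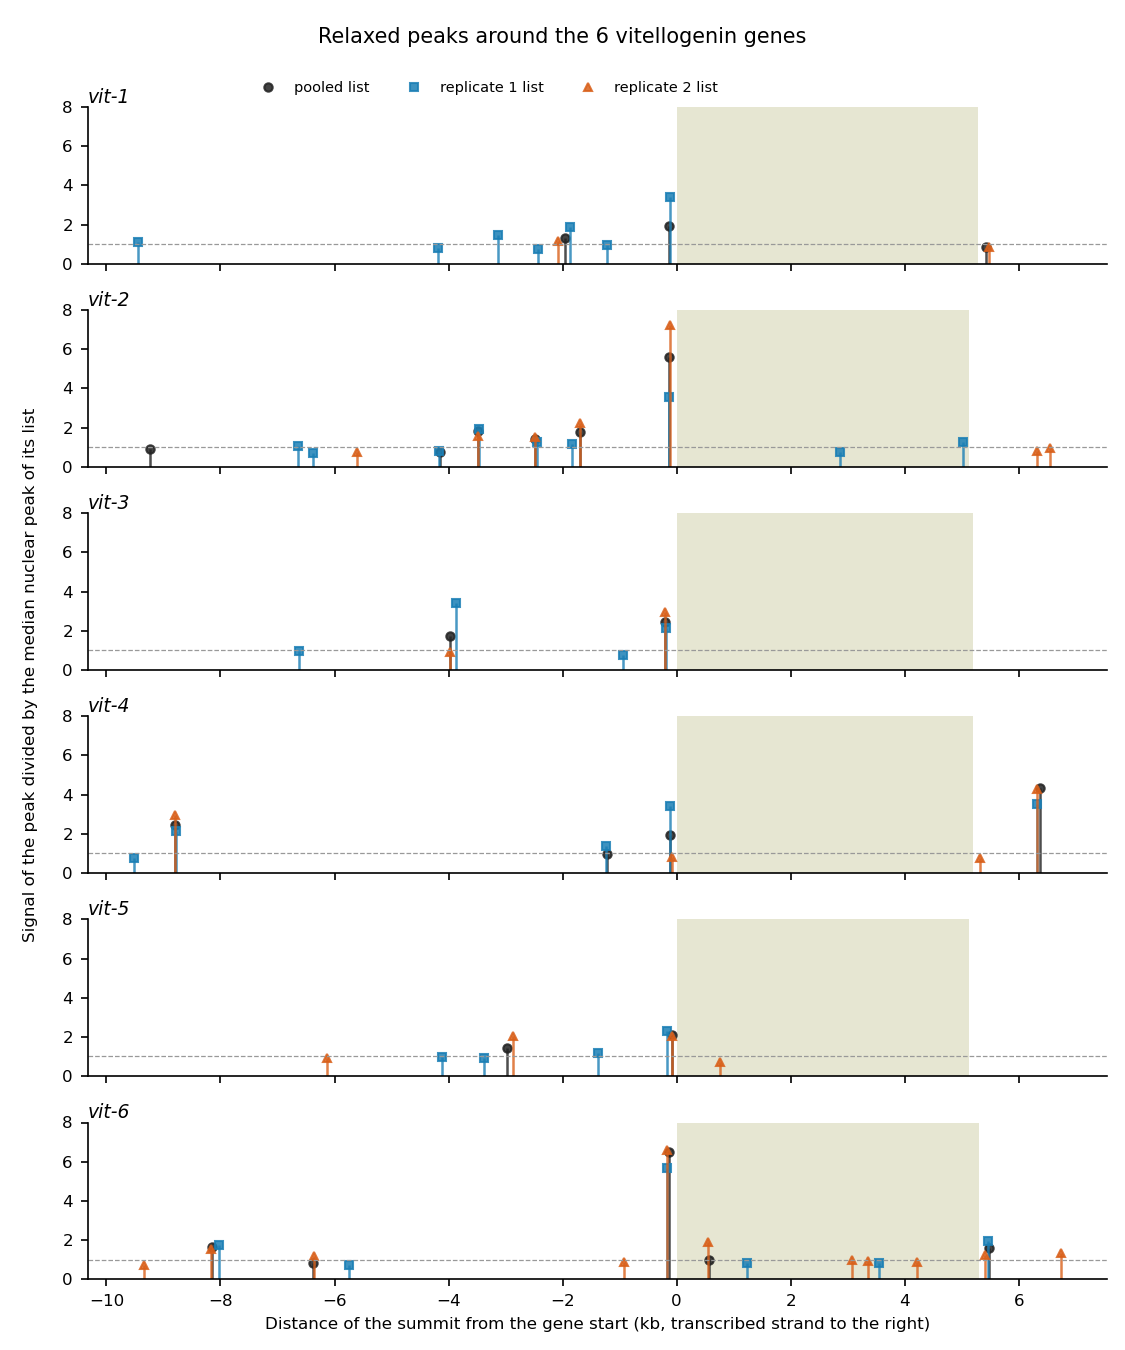
Summits of the pooled, replicate 1 and replicate 2 lists from 10 kb upstream to 2 kb downstream of each vitellogenin gene, by distance from the gene start in kb, with height as the signal divided by the median nuclear peak of the same list (dashed line at 1) and gene bodies shaded. A cluster of symbols stands just upstream of each start, highest at vit-2 and vit-6, and the shaded bodies hold few symbols except that of vit-6, with 1 pooled, 2 replicate 1 and 4 replicate 2 summits.

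Other genes of yolk production were peak-bearing in part. The 15 such genes looked at leave out the vitellogenins and are mostly regulators. The choice was made with earlier results of these data known, so their counts are no independent result. Of these 15 genes 3 had a promoter summit in the thresholded list, against the 2.43% of all genes given above. They were unc-62 itself (79.1, also carried by the transgene), ceh-60 (50.9) and alg-1, an Argonaute of the microRNA pathway (32.1). These signals bracket those of vit-2 and vit-6 from above and below. In the pooled list 8 of 15 had a promoter summit, against the 33.2% of all genes given above. Those with the next highest pooled signals were daf-16, the FOXO factor of insulin signalling (29.9), the kinase gene sgk-1 (29.6), the intestinal GATA factor gene elt-2 (18.2) and rict-1, a subunit of TOR complex 2 (10.9, with the start of gfm-1 nearer). The yolk receptor gene rme-2 and the regulator genes mab-3 and lin-29 had no promoter summit in any list, and dsc-4, a lipid transfer protein gene, had only a weak one in replicate 1 (4.64). Of the remaining 4 genes, pqm-1 was weak in all relaxed lists (8.63 in the pooled list), lrp-2 (4.35) and daf-2 (3.33) had a peak in replicate 1 alone, and elt-7 (7.78) had a peak in replicate 2 alone.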

How the data were processed

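The data were ChIP-seq peaks of 1 group in 2 samples labelled as biological replicates. The deposited README texts trace each replicate list to its own alignment plus a control, the pooled list to both, and the thresholded list to the relaxed ones. Aligner, peak caller, versions and read length: not given in the sources used here. Signal (column 7) is the peak strength deposited by the authors, and the −log10 of the q-value was also used as deposited. Depth is unknown, and fragments spanned 150 to 350 bp per the labels. Of 8 deposited lists the 4 on ce11 were used.

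Genes and starts came from Ensembl release 115 (WBcel235) and sequence from the RefSeq copy of that assembly, in which 99.86% of 24285 annotated start codons read ATG. Summits were the deposited positions, 1-based, and ranks counted nuclear peaks only. Replicate values at a pooled peak are those of the strongest peak overlapping it by 1 bp. Identity came from global alignment (Biopython 1.88; match 2, mismatch -1, gap open -5, gap extension -0.5), over aligned bases without gaps. Python 3.11.15, numpy 2.4.6, pandas 2.3.3, numba 0.67.0 and matplotlib 3.10.9 were used. Window, motif and word counts were checked on toy data with known answers.

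With 1 group no comparison between conditions was possible and no p-value was computed; counts of genes stand beside the share of all genes. The 6 genes, the yolk list, windows, motif words and alternatives were chosen with earlier results of these data known, and those added later are named as such. Named genes followed a rule: the 6 genes and their neighbours, the gene nearest to each thresholded peak in a window, yolk genes with a thresholded promoter peak and the next 4 by pooled signal, and the 3 most similar promoter peaks for each of vit-2 and vit-6. The genes ckc-1, cht-1 and gfm-1 and the yolk genes without a pooled peak were named after their values were seen.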

Additional observations from a re-analysis of the deposited data

How the results depend on the processing

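Of 125 alternatives run over 74 results, 121 stayed within 1.5 times the reported value, the limit included, and 4 did not. Of the 125, 79 were rank, signal, ratio and uniqueness alternatives, of which 2 moved. Some could not move: where a promoter window held 1 summit, taking the summit nearest to the start left the signal unchanged. These results are counts, ranks, signals, ratios and shares, which have no direction that could change. Leaving out replicate 2 changed the count of vitellogenin genes in the thresholded list, and leaving out replicate 1 did not. With as many of the strongest peaks of replicate 2 alone it was 2 of 6, and with those of replicate 1 alone 4 of 6, vit-1 and vit-4 joining vit-2 and vit-6. Done the same way after seeing the data, the pooled count of 6 became 4 and 6. The fall to 4 lies at the limit of 1.5 times and was counted as within it. Within 50 bp of the pooled summit the Pbx-Meis composite was found at 0 genes, since the vit-1 copy lies farther off. With words of 100 bases, 39.3% of the vit-3 body and 33.1% of the vit-4 body occurred at a single place, against 25.9% and 21.4% with 50 bases. No paired analysis was possible because there is a single group. Peaks without counts allow no error on a signal, so small differences between vit-1, vit-4 and vit-5 are not resolved.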

Other observations

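In the 300 bases around the start, the Meis core and VPE1 overlap as CTGTCAAT at vit-1 (starting 116 bp upstream) and at vit-4 (2 copies, starting 98 and 60 bp upstream), and at none of the other 4 vitellogenin genes. This word was taken from the overlap already seen at vit-1 and vit-4, after the replicate values were known. That it occurs at these 2 genes and not at the other 4 was thus fixed in advance. It occurred in 0.971% of all nuclear protein-coding promoters of that length. The same 2 genes had the promoter peaks that were strong in replicate 1 (15.9 and 16.1) and absent or weak in replicate 2 (no peak and 5.68). The promoter of ckc-1, whose peak had a similar ratio of 2.56, held 0 copies. Whether the word has a part in the difference between replicates was not tested.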
